A study of Rattus norvegicus with 18 samples.

Results

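The SLC25 family holds the carriers of the inner mitochondrial membrane, proteins that exchange nucleotides, phosphate, carboxylates, amino acids, cofactors and iron between the cytosol and the mitochondrial matrix. Its members were taken as the genes whose symbol is Slc25a followed by a number, each measured by the probe set with the highest mean among those with exactly 1 platform symbol. This gave 37 of the 14506 genes of the arrays, of which 36 stood among the 11370 genes expressed highly enough to be tested. The 37th, Slc25a54, averaged 5.16 on the log2 scale, below the limit of 6.32, and was left untested. The rule used names and, among probe sets of a gene, the mean over all 18 arrays, but no difference between groups. RefSeq (GRCr8) lists 49 protein-coding Slc25a symbols. The other 12, among them the aspartate-glutamate carriers Slc25a12 and Slc25a13, had no probe set of their own under this rule and were not analysed here.

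The arrays measured RNA of medullary thyroid carcinomas, which arise from the C cells that secrete calcitonin, in MENX rats. Every animal was mutant for Cdkn1b, which encodes the cell cycle inhibitor p27Kip1, on a mixed background of Sprague–Dawley white eye and Wistar–Kyoto. The 18 arrays came in 3 groups of 6: tumours of homozygous mutants aged 9 months, of heterozygous mutants aged 18 months and of heterozygous mutants aged 9 months. The animals were untreated and kept free of specific pathogens, each array carries an animal code of its own, and the labels give no sex, litter or array date. Neither animals without the mutation nor healthy thyroids were sampled here. The homozygous tumours were compared with the heterozygous ones at 9 months, here called the genotype comparison. The heterozygous tumours of 18 months were compared with those of 9 months, called the age comparison. Both comparisons use the same 6 heterozygous tumours of 9 months, so their differences are not independent of each other.

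SLC25 proteins are built from a repeated membrane module, and most exchange a substrate on the matrix side for another on the cytosolic side. The adenine nucleotide translocases and the phosphate carrier feed ATP synthase, while the citrate, dicarboxylate, oxoglutarate and glutamate carriers link the tricarboxylic acid cycle to cytosolic synthesis and to the malate-aspartate shuttle. The mitoferrins supply iron for heme and iron-sulphur clusters, and other members bring in carnitine esters, coenzyme A, NAD, glutathione and S-adenosylmethionine. Tissues use different members, and paralogues with the same substrate are often split between cell types.

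The array values are log2 intensities, so a difference of 1 corresponds to a doubling, and levels of different genes cannot be set against each other because each probe set binds with its own strength. Differences are the homozygous or the 18-month group minus the heterozygous tumours of 9 months. A gene counts as called where limma's Benjamini-Hochberg adjusted p over all 11370 genes was under 0.05.

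Promoters of 32 of the 37 members were found in RefSeq (GRCr8), each of 300 bases around the annotated start. The sequences below are those of the 4 carriers with an entry whose 18-month and 9-month heterozygous tumours did not overlap, Slc25a5 and Slc25a11 (lower at 18 months) and Slc25a39 and Slc25a42 (higher at 18 months). Slc25a51, the NAD carrier, is added because it alone held the binding motif of NRF1, a regulator of nuclear genes for mitochondria. They lie at chrX:120897366-120897665 on the plus strand for Slc25a5, chr10:55859011-55859310 on the minus strand for Slc25a11, chr10:87866924-87867223 on the minus strand for Slc25a39, chr16:19247724-19248023 on the plus strand for Slc25a42 and chr5:64458955-64459254 on the minus strand for Slc25a51. Each is written 5′ to 3′ on the strand of its gene, and capitals mark every match, on either strand, to the motifs named after the sequences.
Slc25a5: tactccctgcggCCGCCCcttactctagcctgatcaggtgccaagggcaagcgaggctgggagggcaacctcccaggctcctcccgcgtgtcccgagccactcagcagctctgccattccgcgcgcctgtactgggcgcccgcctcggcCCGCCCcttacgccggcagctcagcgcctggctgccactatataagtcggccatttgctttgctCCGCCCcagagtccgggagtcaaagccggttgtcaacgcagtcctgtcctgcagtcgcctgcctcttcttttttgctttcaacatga
Slc25a11: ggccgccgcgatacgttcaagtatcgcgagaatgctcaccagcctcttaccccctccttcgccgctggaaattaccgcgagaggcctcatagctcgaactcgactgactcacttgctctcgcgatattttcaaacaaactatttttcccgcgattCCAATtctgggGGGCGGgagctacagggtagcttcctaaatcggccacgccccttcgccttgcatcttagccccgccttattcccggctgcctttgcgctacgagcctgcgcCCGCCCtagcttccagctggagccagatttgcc
Slc25a39: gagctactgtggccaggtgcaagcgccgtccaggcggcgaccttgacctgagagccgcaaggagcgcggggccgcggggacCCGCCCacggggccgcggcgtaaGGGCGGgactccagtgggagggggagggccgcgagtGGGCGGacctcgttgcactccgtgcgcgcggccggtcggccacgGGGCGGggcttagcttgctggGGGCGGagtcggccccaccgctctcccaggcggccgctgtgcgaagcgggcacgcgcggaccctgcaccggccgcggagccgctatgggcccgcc
Slc25a42: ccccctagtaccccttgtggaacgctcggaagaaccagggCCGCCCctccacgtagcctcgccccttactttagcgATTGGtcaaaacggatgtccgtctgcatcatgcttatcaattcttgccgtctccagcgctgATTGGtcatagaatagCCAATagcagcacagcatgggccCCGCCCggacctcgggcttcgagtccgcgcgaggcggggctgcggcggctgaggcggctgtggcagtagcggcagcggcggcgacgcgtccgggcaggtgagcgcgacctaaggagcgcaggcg
Slc25a51: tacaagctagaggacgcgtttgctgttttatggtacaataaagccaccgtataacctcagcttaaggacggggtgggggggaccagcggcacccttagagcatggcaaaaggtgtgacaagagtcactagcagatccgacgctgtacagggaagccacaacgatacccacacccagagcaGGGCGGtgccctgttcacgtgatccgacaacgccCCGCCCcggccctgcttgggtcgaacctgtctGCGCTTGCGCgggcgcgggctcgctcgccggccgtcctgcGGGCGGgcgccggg

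The motifs were the NRF1 motif (GCGCA and GCGC separated by any single base), the estrogen-related receptor motif TCAAGGTCA, the GC box GGGCGG and the CCAAT box CCAAT, searched as these letters on both strands. No motif contains another, and overlapping matches were counted. The NRF1 motif stood in 1 of the 32 member promoters, that of Slc25a51, against 4.71% of all 27457 promoters of the same length. The estrogen-related receptor motif stood in 0 of 32, against 0.412% of all promoters. GC boxes stood in 23 of 32 member promoters, against 34.9% of all, and CCAAT boxes in 18 of 32, against 37.7%. All promoters means 1 per RefSeq gene, whether or not the gene was on the arrays or tested, so the sets are not matched. The promoters of the members had a median GC content of 60.3% (43.3% to 77.7%) against 52.3% for all promoters. Of the 5 printed, Slc25a39 held 5 GC boxes and no CCAAT box, Slc25a42 held 2 GC boxes and 3 CCAAT boxes, Slc25a11 held 2 and 1, and Slc25a5 held 3 GC boxes. Carriers with higher and with lower values at 18 months thus both had GC boxes. A match of letters describes the sequence and is not a measured binding site.

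Markers of C cells and of other cells varied between the tumours. The C cell genes Calca and Chga were high on every array (Calca at least 13.7). The mean of 12 C cell genes lay between 11.4 and 12.5 in homozygous tumours. It lay between 11.62 and 12.72 in 18-month and between 10.85 and 11.49 in 9-month heterozygous tumours, without overlap. The mean of 11 thyroid follicular genes lay between 10.1 and 11.1 in homozygous tumours. In 18-month tumours it lay between 7.28 and 10.9, and in 9-month heterozygous tumours between 11.04 and 11.14. Of the 10 follicular genes tested, 9 were called lower in the age comparison. So were 9 of 9 endothelial genes and 8 of 9 adipocyte genes, while 10 of 12 C cell genes were called higher. Over all genes 22.4% were called lower and 21.6% higher. In the genotype comparison 0 of 12 C cell genes were called with limma. An unadjusted p under 0.05 was reached by 6 of these 12, against 8.75% of all genes. The mean of 4 parathyroid genes ranged from 8.67 to 12.5 in homozygous, from 8.23 to 12.4 in 18-month and from 9.34 to 12.4 in 9-month heterozygous tumours. The mean of 13 skeletal muscle genes ranged from 7.14 to 11.8 in homozygous, from 6.73 to 10.7 in 18-month and from 9.41 to 11.48 in 9-month heterozygous tumours. Tumours 4 and 5 of the 18-month group stood nearer to the 9-month tumours than the other 4, with follicular means of 10.9 and 10.6 against 7.28 to 9.43. Homozygous tumour 3 stood apart from its group, with a follicular mean of 10.1 against 10.8 to 11.1. Its C cell mean was 12.5 against 11.4 to 11.6. In whole tumours, fewer cells of a type and less RNA per cell cannot be told apart.

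The genotype comparison asked how tumours with both copies of Cdkn1b mutated differ from tumours with a single mutated copy at the same age. No carrier was called: 0 of 36 members and 0% of all genes tested reached an adjusted p under 0.05 with limma. At an unadjusted p under 0.05 stood 1 of 36 members, against 8.75% (995) of all genes. Differences of the members ran from -0.18 to 0.29, with a median of -0.00208, against 0.00217 over all genes. The median size of a difference was 0.0652 for the members and 0.0848 over all genes. Exactly 18 members had a positive and 18 a negative difference, against 50.8% positive over all genes. The smallest adjusted p of a member was 0.503, that of Slc25a23, against 0.102 over all genes.

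The 4 carriers with a positive difference and the smallest p were Slc25a23, Slc25a14, Slc25a17 and Slc25a27. Slc25a23, a calcium-regulated carrier of ATP-magnesium and phosphate, measured 11.65 at its lowest, 11.82 at its median and 12.02 at its highest in homozygous tumours, against 11.50, 11.61 and 11.71 in heterozygous ones. The groups overlapped, with 4 of 6 homozygous tumours above all heterozygous ones, and the difference was 0.21 (SE 0.08, 95% interval 0.04 to 0.38, adjusted p = 0.503). Slc25a14, a relative of the uncoupling proteins expressed in brain, measured 7.63, 7.75 and 7.91 in homozygous tumours, against 7.40, 7.57 and 7.61 in heterozygous ones. All 6 homozygous tumours lay above all 6 heterozygous ones, the lowest by a small margin, and the difference was 0.20 (SE 0.10, adjusted p = 0.569). It was the only member without overlap in this comparison, 1 of 36, where 1.57% of all genes did not overlap in either direction. Slc25a17, a carrier of coenzyme A and other cofactors in the peroxisome membrane, differed by 0.15 (SE 0.08, adjusted p = 0.579). Slc25a27, another uncoupling protein relative found in neurons, differed by 0.29 (SE 0.22, adjusted p = 0.697), and tumour 3, at 8.55 against 7.39 to 7.70 in the other homozygous tumours, carried much of that value, which was 0.11 without it.

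The 4 with a negative difference and the smallest p were Slc25a25, Slc25a34, Slc25a37 and Slc25a1. Slc25a37, mitoferrin 1, measured 8.25, 8.64 and 8.84 in homozygous tumours against 8.71, 8.81 and 8.89 in heterozygous ones. Here 4 of 6 homozygous tumours lay below all heterozygous ones, with a difference of -0.18 (SE 0.14, adjusted p = 0.700). Slc25a25, a calcium-regulated ATP-magnesium carrier like Slc25a23, differed by -0.14 (SE 0.11, adjusted p = 0.693), by -0.06 without heterozygous tumour 6 and by -0.09 without heterozygous tumour 5. Slc25a1, the citrate carrier, differed by -0.10 (SE 0.08, adjusted p = 0.718), and Slc25a34, whose substrate is not established, by -0.09 (SE 0.07, adjusted p = 0.693). Without homozygous tumour 3 the differences were smaller, at -0.11 for Slc25a37, -0.05 for Slc25a1 and -0.05 for Slc25a34, and Slc25a34 was at -0.06 without heterozygous tumour 4. The main ATP-handling carriers had differences near 0: 0.01 (SE 0.06) for the phosphate carrier Slc25a3, 0.01 (SE 0.16) for the adenine nucleotide translocase Slc25a4 and -0.04 (SE 0.08) for its sister Slc25a5. Their 95% intervals ran from -0.12 to 0.14, from -0.32 to 0.34 and from -0.20 to 0.12. The carnitine-acylcarnitine carrier Slc25a20 differed by -0.13 (SE 0.10), by -0.04 without homozygous tumour 1, by -0.07 without heterozygous tumour 3 and by -0.205 without heterozygous tumour 1. Slc25a46, a protein of the outer membrane involved in mitochondrial shape, differed by 0.03 (SE 0.11). Homozygous tumour 3 was the highest or the lowest of the 12 tumours of 9 months for 19 of 36 members (52.8%), and for 50.3% of all genes.

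**Figure D1:**
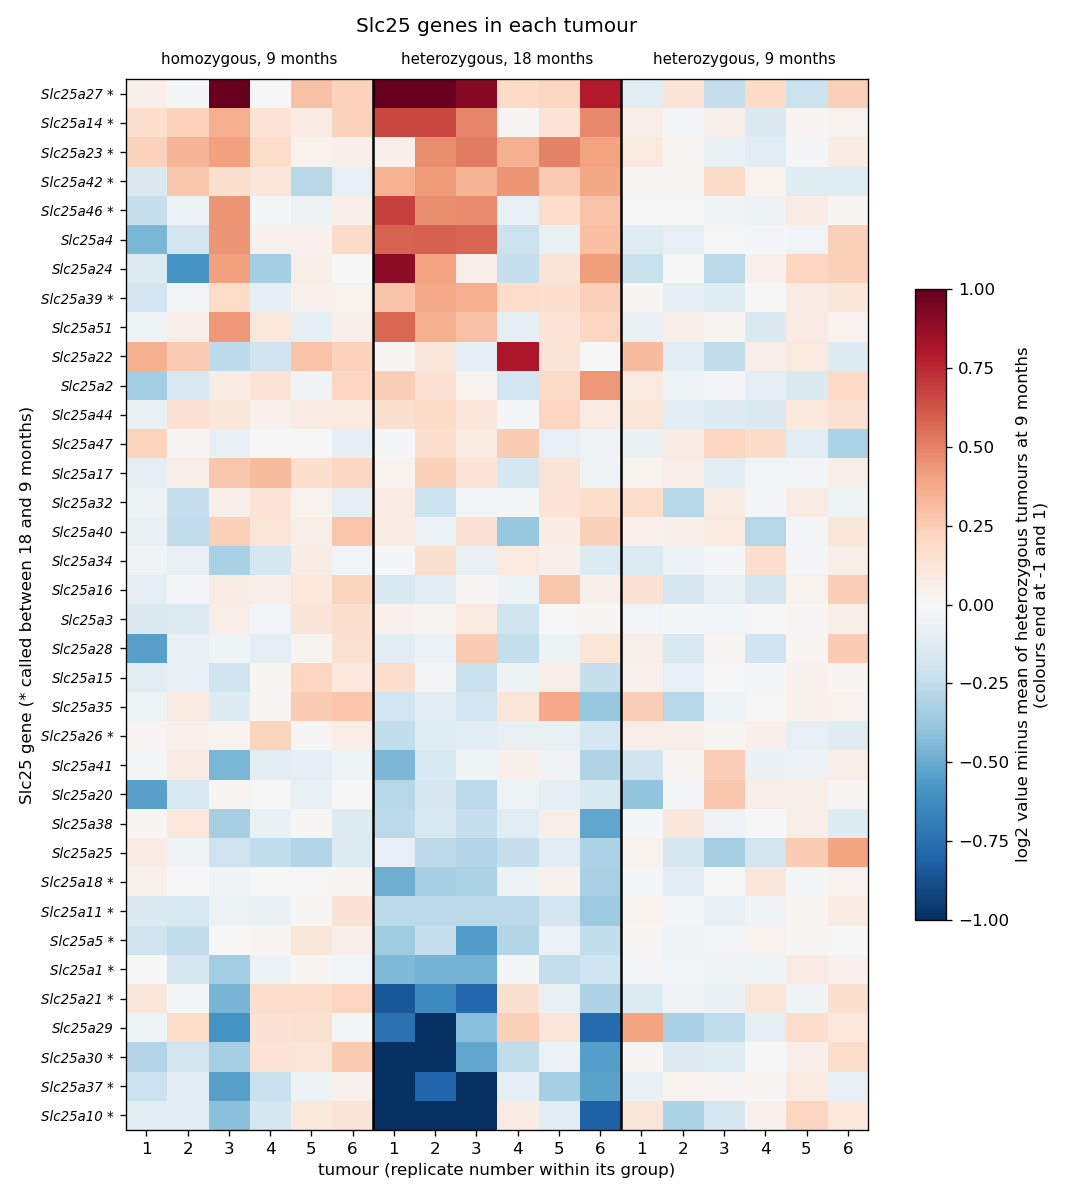
Values of the 36 tested carriers (rows) in each of the 18 tumours (columns, by group and replicate number), as log2 value minus the mean of the heterozygous tumours of 9 months; red is higher, blue is lower, colours end at -1 and 1, and an asterisk marks the 15 carriers called in the age comparison. Tumours 1, 2, 3 and 6 of 18 months carry the deepest colours, tumours 4 and 5 of that group look more like 9-month tumours, and homozygous tumour 3 stands apart from its group.

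The age comparison asked how heterozygous tumours of 18 months differ from those of 9 months. Of 36 carriers 15 were called (41.7%), 6 higher and 9 lower, while 44.1% of all genes tested were called, 21.6% higher and 22.4% lower. The share of called carriers was thus near that of all genes. The higher ones were Slc25a14, Slc25a23, Slc25a27, Slc25a39, Slc25a42 and Slc25a46, and the lower ones Slc25a1, Slc25a5, Slc25a10, Slc25a11, Slc25a18, Slc25a21, Slc25a26, Slc25a30 and Slc25a37. Differences ran from -0.66 to 0.79, with a median of 0.000333 for the members and -0.0045 over all genes, and the median size was 0.23 against 0.20 over all genes. At an unadjusted p under 0.05 stood 18 of 36, against 51.4% of all genes. For 5 members (13.9%) the age groups did not overlap, against 18.1% of all genes, 2 of them higher (9.07% of all genes) and 3 lower (9% of all genes). Follicular genes fell in the same tumours. With the follicular mean as a covariate, 1 of 36 members and 1.77% of all genes were called. That mean itself did not overlap between the ages, so age and follicular level can hardly be told apart in this fit. With the mean of the parathyroid genes as a covariate, 6 of 36 members (16.7%) and 2613 of all 11370 genes were called. These members were Slc25a11, Slc25a14, Slc25a23, Slc25a37, Slc25a39 and Slc25a42. Without tumours 4 and 5, which were singled out with earlier results of these data known, all 15 stayed called. Slc25a4, Slc25a24, Slc25a29, Slc25a38 and Slc25a51 were added (20 of 36, against 53.9% of all genes). Tumours 4 and 5 were the nearest of their group to the 9-month side for 64.8% of all called genes. Leaving them out thus favours larger differences, and the calls of that fit are no independent evidence.

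**Figure D2:**
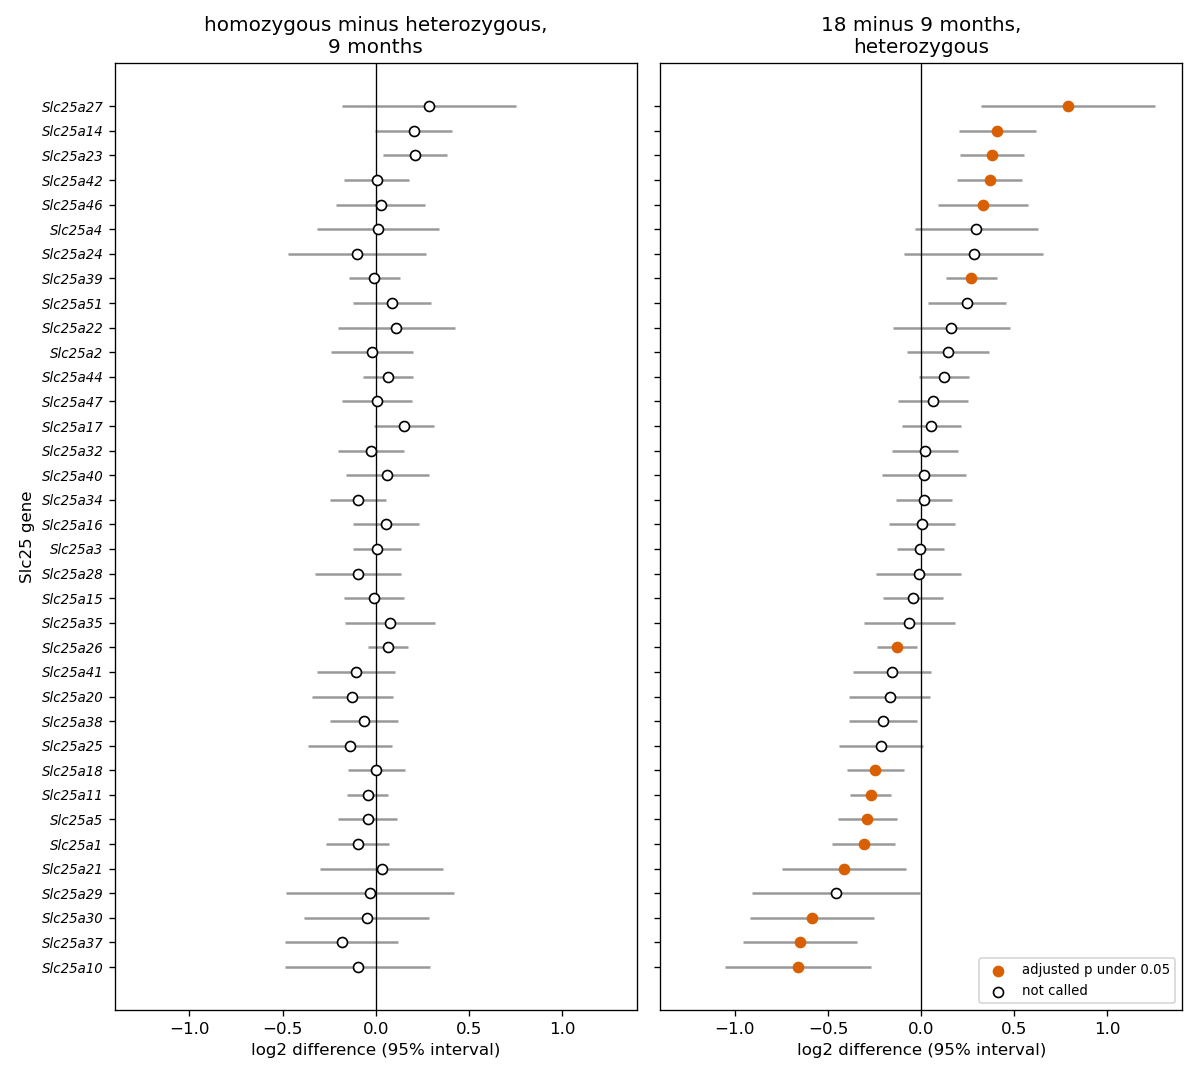
Log2 difference of each of the 36 carriers with its 95% interval from limma, homozygous minus heterozygous at 9 months (left) and 18 minus 9 months in heterozygotes (right), ordered by the age difference. Filled points mark an adjusted p under 0.05, which 0 carriers reach on the left and 15 on the right, from -0.66 for Slc25a10 to 0.79 for Slc25a27.

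Most carriers of carboxylates and glutamate were lower at 18 months. Of the 6 measured 5 fell, 0 rose and 1 was not called, where 22.4% of all genes fell, and their median difference was -0.29, against -0.0045 over all genes. Slc25a10, the dicarboxylate carrier, which exchanges malate and succinate for phosphate, measured 8.46, 8.61 and 9.62 (lowest, median and highest) in 18-month tumours, against 9.21, 9.61 and 9.75 in 9-month heterozygous ones. Tumours 1, 2, 3 and 6 lay below every 9-month heterozygous tumour, while tumours 4 and 5 lay among them. It fell by 0.66 (SE 0.19, 1.58-fold, adjusted p = 0.00861). Without tumours 4 and 5 the difference was -0.99, and with the follicular covariate -0.09. Slc25a11, the oxoglutarate carrier of the malate-aspartate shuttle, measured 11.23, 11.32 and 11.40 at 18 months, against 11.51, 11.59 and 11.67 at 9 months. All 6 older tumours lay below all 6 younger ones, tumours 4 and 5 included, and it fell by 0.27 (SE 0.05, adjusted p = 0.00109). With the follicular covariate the difference was still -0.26, with an adjusted p of 0.0761.

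Slc25a1, the citrate carrier that exports citrate for fatty acid and sterol synthesis, measured 9.38, 9.51 and 9.83 in 18-month tumours, against 9.81, 9.83 and 9.94 in 9-month heterozygous tumours. Tumour 4, at the top of its group, was the single older tumour within the younger range, and the gene fell by 0.31 (SE 0.08, adjusted p = 0.0057). With the follicular covariate the difference was -0.10 (adjusted p = 0.544), and a second probe set of Slc25a1 differed by -0.09. Slc25a21, which carries oxoadipate and oxoglutarate, measured 6.39, 6.77 and 7.40 at 18 months, against 7.10, 7.21 and 7.40 at 9 months. It fell by 0.41 (SE 0.16, adjusted p = 0.0409), but tumours 4 and 5 lay within the younger range. The call did not hold when any of 8 single arrays was left out, tumours 1, 2 and 3 of 18 months and heterozygous tumours 2 to 6 of 9 months (adjusted p 0.0549 to 0.103). Slc25a18, a glutamate carrier, measured 6.81, 6.98 and 7.34 at 18 months, against 7.18, 7.29 and 7.41 at 9 months, with 4 of 6 older tumours below all younger ones, and fell by 0.25 (SE 0.07, adjusted p = 0.0126). Slc25a18 in the fit with the follicular covariate differed by -0.02 (adjusted p = 0.909) and Slc25a21 by 0.10 (adjusted p = 0.708). The other glutamate carrier, Slc25a22, was not called, with a difference of 0.16 (SE 0.15) that was 0.03 without tumour 4, which at 10.62 was far above its group.

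Carriers of nucleotides and phosphate, a group that includes Slc25a17 of the peroxisome, were mostly not called, 1 of 8 higher, 1 of 8 lower and 6 not called. Over all genes 21.6% were called higher and 22.4% lower. Slc25a5, the adenine nucleotide translocase of dividing cells, measured 12.49, 12.78 and 12.99 in 18-month tumours, against 13.01, 13.05 and 13.08 in 9-month heterozygous ones. The groups did not overlap, and Slc25a5 fell by 0.29 (SE 0.08, 1.22-fold, adjusted p = 0.00584), with a difference of -0.20 (adjusted p = 0.280) under the follicular covariate. Its RefSeq entry has 9 pseudogenes, so the probe set may also read copies of it, which was not tested. Slc25a4, the translocase of muscle and nerve, measured 10.78, 11.44 and 11.59 at 18 months, against 10.88, 10.97 and 11.23 at 9 months. Its difference was 0.30 (SE 0.16, 95% interval -0.03 to 0.63, adjusted p = 0.134). Tumours 1, 2 and 3 measured 11.58 to 11.59, tumour 6 measured 11.29, and tumours 4 and 5 lay at or below 10.92. Without tumour 4 the difference was 0.40 with an adjusted p of 0.0309, and without 4 and 5 it was 0.52.

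Within each tumour the Slc25a5 value minus the Slc25a4 value, a contrast of the translocase pair that compares tumours and not the 2 genes' amounts, ran from 1.62 to 2.31 in homozygous tumours (mean 1.99 ± 0.23, SD, n = 6). In 18-month tumours it ran from 0.91 to 2.07 (mean 1.46 ± 0.47), and in 9-month heterozygous tumours from 1.81 to 2.18 (mean 2.05 ± 0.13). Tumours 4 and 5 of 18 months, at 1.977 and 2.065, lay within the 9-month heterozygous range, and the other 18-month tumours lay below it. Against the 9-month heterozygous tumours the mean differed by -0.06 in homozygous and by -0.59 in 18-month tumours, given as a description with no test.

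Slc25a23, a calcium-regulated ATP-magnesium carrier, measured 11.66, 12.04 and 12.12 in 18-month tumours, against 11.50, 11.61 and 11.71 in 9-month heterozygous ones. Here 5 of 6 older tumours lay above all younger ones, tumours 4 and 5 among them, and the exception was tumour 1. The gene rose by 0.38 (SE 0.08, 1.3-fold, adjusted p = 0.00181). It was the single member still called with the follicular covariate, at 0.49 (adjusted p = 0.0354), and its second probe set differed by 0.42. Slc25a23 lies beside Slc25a41 in RefSeq, and Slc25a41 was not called, with a difference of -0.16 (SE 0.10). Slc25a24, a further carrier of this kind, had a difference of 0.28 (SE 0.18), and both of its probe sets gave 0.28, though they differed in sign in the genotype comparison, at -0.10 and 0.03. Slc25a25 differed by -0.22 (SE 0.11) and was called, at -0.28 with an adjusted p of 0.0361, without 9-month heterozygous tumour 3. The phosphate carrier Slc25a3 had a difference of -0.005 with a 95% interval of -0.13 to 0.12, and Slc25a17 differed by 0.05 (SE 0.08).

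The relatives of uncoupling proteins moved in both directions, 2 of 3 higher and 1 of 3 lower (all genes 21.6% and 22.4%). Slc25a27 measured 7.60, 8.26 and 8.93 in 18-month tumours, against 7.17, 7.41 and 7.64 in 9-month heterozygous ones. Tumours 1, 2, 3 and 6 lay between 8.20 and 8.93, above all younger tumours, and tumours 4 and 5 at 7.60 and 7.62 lay within the younger range. It rose by 0.79 (SE 0.22, 1.73-fold, adjusted p = 0.00916), the largest rise among the carriers. Slc25a14 measured 7.56, 8.03 and 8.21 at 18 months, against 7.40, 7.57 and 7.61 at 9 months, with 5 of 6 older tumours above all younger ones, and rose by 0.41 (SE 0.10, adjusted p = 0.00351). Slc25a30, first named for its expression in kidney, measured 8.24, 8.83 and 9.30 at 18 months, against 9.23, 9.37 and 9.54 at 9 months. Here 5 of 6 older tumours lay below all younger ones, and it fell by 0.59 (SE 0.16, 1.5-fold, adjusted p = 0.00713). With the follicular covariate Slc25a27, Slc25a14 and Slc25a30 differed by 0.07, 0.10 and -0.17. Of the uncoupling proteins and the other family proteins with names of their own, 5 were tested, 2 were called higher and 2 lower. Ucp2, which exports carbon skeletons from the matrix, rose by 0.44 (SE 0.10, adjusted p = 0.00212) and Mtch2, of the outer membrane, by 0.34. Mtch1, its relative, fell by 0.26, and Ucp3, the muscle form, fell by 0.51. Ucp1, the heat-producing protein of brown fat, ranged from 5.87 to 9.94 in 18-month tumours and from 5.87 to 11.4 in 9-month heterozygous ones, and was not called.

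Of the 2 mitoferrins 1 fell and 1 was not called. Slc25a37, mitoferrin 1, best known for feeding iron to heme in developing red cells, measured 7.71, 8.13 and 8.70 in 18-month tumours, against 8.71, 8.81 and 8.89 in 9-month heterozygous ones. The groups did not overlap, but tumour 4 lay just under the younger tumours, and tumours 1 and 3 stood lowest. It fell by 0.65 (SE 0.14, 1.57-fold, adjusted p = 0.00228). Without tumours 4 and 5 the difference was -0.87, and with the follicular covariate -0.16. None of 5 tested erythroid genes was called with limma in the age comparison, 0 also at an unadjusted p under 0.05. The erythroid list mean lay between 7.48 and 7.95 in 9-month heterozygous tumours. At 18 months it was 7.24, 7.37 and 7.42 in tumours 1, 2 and 3, below all of these. It was 7.65 and 7.735 in tumours 4 and 5 and 8.97 in tumour 6. Slc25a28, mitoferrin 2, which serves other cells, had a difference of -0.01 (SE 0.11). Among 8 tested genes of iron-sulphur cluster and heme synthesis, 4 fell, including Iscu, a scaffold of cluster assembly, at -0.27 (SE 0.06), and the heme synthesis enzymes Ppox at -0.24 and Urod at -0.16, and 0 rose, while 22.4% of all genes fell. None of these 4 stayed called with the follicular covariate (adjusted p 0.240 to 0.757), where 181 of all 5009 called genes did.

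**Figure D3:**
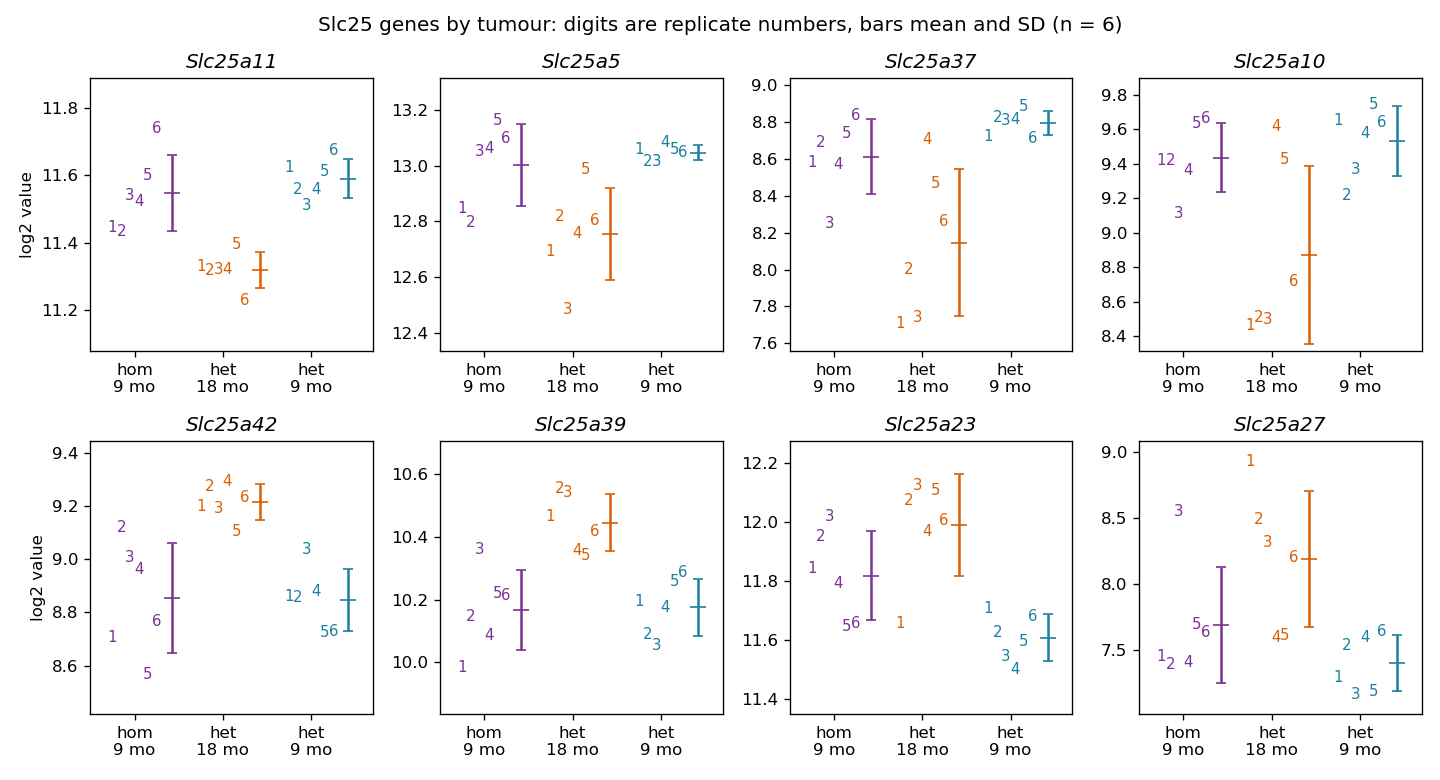
Log2 values of 8 carriers in each tumour, with the replicate number as the point and bars for mean and SD (n = 6), for homozygous tumours of 9 months, heterozygous tumours of 18 months and heterozygous tumours of 9 months from left to right. Slc25a11, Slc25a5, Slc25a37, Slc25a42 and Slc25a39 do not overlap between 18 and 9 months in heterozygotes, while Slc25a10 and Slc25a27 have tumours 4 and 5 of 18 months within or next to the 9-month range.

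Among carriers of cofactors, carnitine esters and glutathione, 2 of 8 rose, 1 fell and 5 were not called. The shares of all genes were 21.6% higher and 22.4% lower. Slc25a42, which brings coenzyme A into the matrix, measured 9.11, 9.21 and 9.29 in 18-month tumours, against 8.72, 8.86 and 9.04 in 9-month heterozygous ones. All 6 older tumours lay above all younger ones, with tumour 4 the highest, and it rose by 0.37 (SE 0.08, 1.29-fold, adjusted p = 0.00244). With the follicular covariate the difference was 0.34 (adjusted p = 0.121). Slc25a39, the importer of glutathione, measured 10.34, 10.44 and 10.55 at 18 months, against 10.05, 10.18 and 10.29 at 9 months. Its groups did not overlap either, and it rose by 0.27 (SE 0.06, 1.21-fold, adjusted p = 0.00337), with a difference of 0.17 (adjusted p = 0.256) under the follicular covariate. RefSeq lists 8 pseudogenes of Slc25a39, and whether the probe set also reads these was not tested. Its relative Slc25a40 had a difference of 0.02 (SE 0.11).

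Slc25a26, which takes S-adenosylmethionine into mitochondria, fell by 0.13 (SE 0.05, adjusted p = 0.0456), with 8.95, 9.08 and 9.12 in 18-month tumours against 9.08, 9.23 and 9.26 in 9-month heterozygous ones. The groups overlapped, with 3 of 6 older tumours below all younger ones. The call did not hold without any of 11 single arrays, tumours 1, 2, 3 and 6 of 18 months, heterozygous tumours 1 to 4 of 9 months and homozygous tumours 2, 5 and 6. Its difference was -0.06 (adjusted p = 0.672) under the follicular covariate. Slc25a51, the NAD carrier, was just short of a call at 0.25 (SE 0.10, adjusted p = 0.0537), and its other probe sets differed by 0.23 and 0.26. It was called without 18-month tumour 4, without tumour 5 and without homozygous tumour 3. Slc25a20, which brings in acylcarnitines for fatty acid oxidation, measured 9.43, 9.55 and 9.66 at 18 months, against 9.31, 9.75 and 9.98 at 9 months, with a difference of -0.17 (SE 0.10, adjusted p = 0.198). Without heterozygous tumour 1 of 9 months, the lowest of its group at 9.31, that became -0.25 with an adjusted p of 0.0389. Slc25a16 and Slc25a32 had differences of 0.01 (SE 0.08) and 0.02 (SE 0.08).

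None of the 5 amino acid carriers was called with limma, where 44.1% of all genes were. An unadjusted p under 0.05 was reached by 2 of them, Slc25a29 and Slc25a38, against 51.4% of all genes. The widest spread was that of Slc25a29, a carrier of arginine and lysine, with 6.17, 6.75 and 7.58 in 18-month tumours against 7.01, 7.34 and 7.73 in 9-month heterozygous ones. Its difference of -0.46 (SE 0.21, adjusted p = 0.0918) was called without 18-month tumour 4 or without tumour 5, and was -0.78 without both. The glycine carrier Slc25a38, used for heme synthesis, had a difference of -0.21 (SE 0.09, adjusted p = 0.0637), called without 18-month tumour 5 or homozygous tumour 3. The ornithine carriers Slc25a2 and Slc25a15 differed by 0.14 (SE 0.11) and -0.05 (SE 0.08), and the branched-chain amino acid carrier Slc25a44 by 0.12 (SE 0.06).

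Among the remaining members 1 of 4 tested rose and 3 were not called, where 21.6% of all genes rose. Slc25a46 measured 9.08, 9.54 and 9.85 in 18-month tumours, against 9.11, 9.16 and 9.25 in 9-month heterozygous ones. Here 5 of 6 older tumours lay above all younger ones and tumour 4 lay below them all, and it rose by 0.33 (SE 0.11, adjusted p = 0.0257). The call was lost without 18-month tumour 1, 2 or 3 (adjusted p 0.0562 to 0.0666), and the follicular covariate turned the difference to -0.04. Slc25a34, Slc25a35 and Slc25a47 had differences of 0.01, -0.06 and 0.06. Slc25a54, below the expression limit, lay between 4.93 and 5.26 in homozygous tumours, between 5.04 and 5.37 in 18-month tumours and between 5.10 and 5.34 in 9-month heterozygous ones. In RefSeq it overlaps Slc25a24, whose difference is given above.

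**Figure D4:**
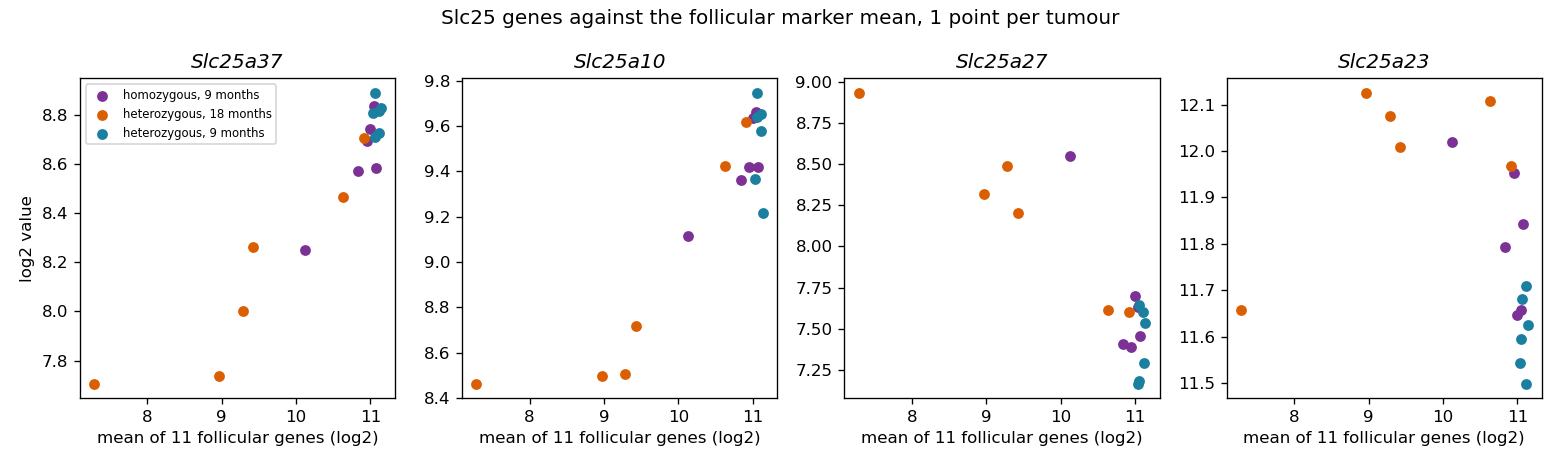
Log2 value of Slc25a37, Slc25a10, Slc25a27 and Slc25a23 in each tumour (vertical) against the mean of 11 thyroid follicular genes in that tumour (horizontal, log2), with 1 point per tumour. The 18-month tumours span follicular means of 7.28 to 10.9, and the 9-month heterozygous tumours sit near 11.1.

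For 10 of the 15 called carriers (66.7%), tumours 4 and 5 of 18 months were the nearest of their group to the 9-month side, namely Slc25a10, Slc25a18, Slc25a21, Slc25a26, Slc25a30 and Slc25a37 among those that fell and Slc25a14, Slc25a27, Slc25a39 and Slc25a46 among those that rose. The same held for 64.8% of all 5009 called genes, so the carriers followed the share of all genes. Slc25a11, Slc25a5, Slc25a1, Slc25a23 and Slc25a42 were the exceptions. SDs of the members were wider at 18 months than in the 9-month heterozygous group for 26 of 36, against 83.0% of all genes. Their median SD was 0.16 in homozygous, 0.19 in 18-month and 0.12 in 9-month heterozygous tumours, against 0.16, 0.19 and 0.11 in those groups over all genes. Slc25a29 had the widest SD at 18 months (0.550) and Slc25a11 the smallest (0.0532).

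**Figure D5:**
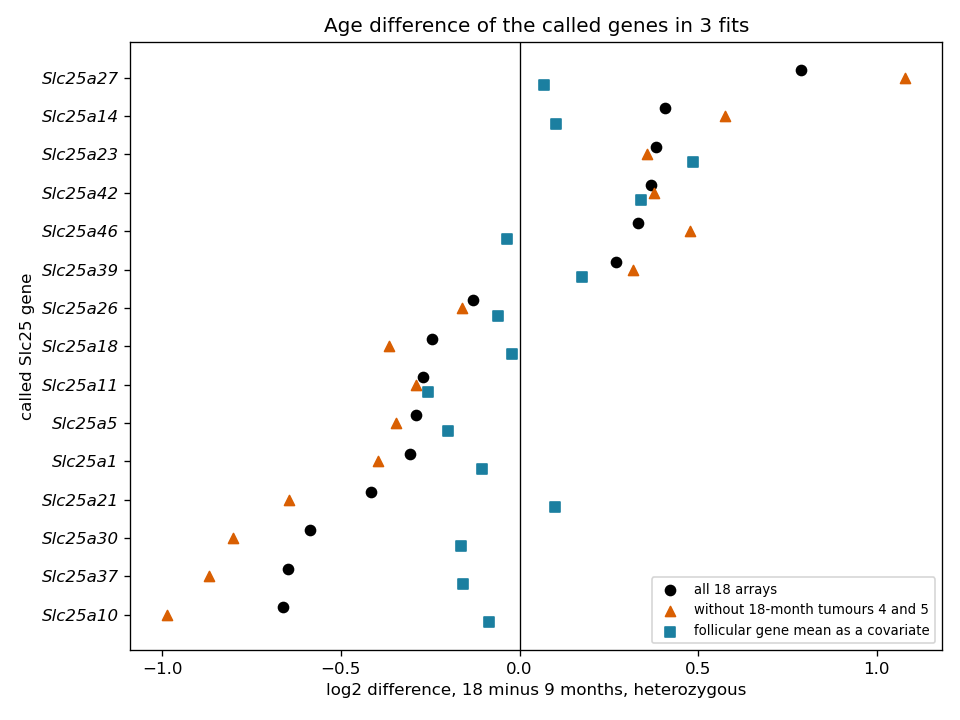
Log2 difference between 18 and 9 months of the 15 called carriers in 3 fits: all 18 arrays, without tumours 4 and 5 of 18 months, and with the mean of the follicular genes as a covariate. Slc25a10 moves between -0.99 and -0.09 and Slc25a27 between 0.07 and 1.08, while Slc25a11 stays between -0.29 and -0.26 and Slc25a42 between 0.34 and 0.38.

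Enzymes and regulators that use what the carriers transport were listed in 10 groups of 94 genes, of which 77 were tested. In the genotype comparison 0 of 77 were called with limma, as were 0% of all genes. At an unadjusted p under 0.05 stood 7 of 77, near the 8.75% of all genes. In the age comparison 16 rose, 29 fell and 32 were not called (58.4% called, against 44.1% of all genes). With the follicular covariate 0 of these 45 stayed called, against 181 of all 5009 called genes. The single partner called in that fit was Ogdh, a subunit of oxoglutarate dehydrogenase, at 0.29 (adjusted p = 0.0447), against 0.06 (adjusted p = 0.552) without the covariate. Among the enzymes around citrate and the malate-aspartate shuttle 5 of 14 rose and 6 fell, where 21.6% of all genes rose and 22.4% fell. Acly, which splits the exported citrate, rose by 0.58 (SE 0.11), Got2, the mitochondrial aspartate aminotransferase, by 0.49 (SE 0.10) and Pc, pyruvate carboxylase, by 0.49 (SE 0.09). In the same list Cs, citrate synthase, fell by 0.42 (SE 0.09), Idh1, the cytosolic isocitrate dehydrogenase, by 0.69 (SE 0.12) and Gpd1, of the glycerol phosphate shuttle, by 0.88 (SE 0.19).

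Around fatty acid oxidation 1 of 9 genes rose and 5 fell. For this and the following lists, 21.6% of all genes rose and 22.4% fell. The acyl-CoA dehydrogenases Acadl, Acadm and Acadvl fell by 1.37 (SE 0.34), 0.71 (SE 0.15) and 0.52 (SE 0.12), and the carnitine acetyltransferase Crat rose by 0.23 (SE 0.08). Among the partners of nucleotide exchange, Hk2, hexokinase 2, fell by 1.25 (SE 0.30), the pore Vdac1 by 0.27 (SE 0.08), and the creatine kinase Ckmt1 rose by 0.55 (SE 0.12). Of the 5 genes of calcium and pyruvate entry 2 rose, 2 fell and 1 was not called. Mcu, the pore of the calcium uniporter, rose by 0.87 (SE 0.23) and its regulator Micu3 by 0.95 (SE 0.20). Another regulator, Micu2, fell by 0.25 (SE 0.07), and Mpc1, of the pyruvate carrier, by 0.39 (SE 0.09). Of 12 genes of amino acid and urea metabolism 2 rose and 3 fell: Pycr1 and Aldh18a1, of proline synthesis, rose by 0.83 and 0.55, and Oat, ornithine aminotransferase, fell by 1.20 (SE 0.25). Mthfd2, of the mitochondrial folate cycle, rose by 1.03 (SE 0.23), while Shmt2 of the same pathway fell by 0.58 (SE 0.17). Of 6 glutathione genes Gclc rose by 0.34 (SE 0.12) and Gsr fell by 0.34 (SE 0.10). Among 7 regulators of mitochondrial biogenesis 1 was called: Ppargc1a, a coactivator of genes for mitochondria, fell to 9.06 ± 0.95 in 18-month tumours, against 10.37 ± 0.14 in 9-month heterozygous ones (SD, n = 6 each). With the follicular covariate its difference was -0.22. Follicular and endothelial genes fell in the same tumours. Of 9 adipocyte genes 8 were called lower at 18 months. The skeletal muscle mean differed by -1.72, with 1 of 13 muscle genes called lower. The part of endothelial, adipocyte and muscle cells in these partner differences was not tested.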

How the data were processed

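RNA of 18 medullary thyroid carcinomas was measured on Affymetrix arrays, 6 per group. The deposited values are log2 signals, for which the submitters' processing notes name Affymetrix Expression Console 1.3.0.187 and RMA without the order of steps. The annotation build of the probe sets is unstated. Total RNA was amplified and biotin-labelled with NuGEN kits, per the labels' protocols. Array medians were 7.55 to 7.65. Arrays give no depth, so their number limits the precision.

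Of 29214 probe sets 15310 had 1 platform symbol, 323 several and 13581 none. Per gene the probe set with the highest mean was kept (14506 genes), and genes at or above the 30th percentile of all probe sets (6.32) were tested (11370). A means model of 3 groups was fitted to 18 arrays with limma 3.58.1 (lmFit, eBayes, R 4.3.3, statmod 1.5.0), and p-values were two-sided and Benjamini-Hochberg adjusted over all tested genes, with a threshold of 0.05. SEs and 95% intervals are those of this fit. The procedure was tested on simulated data.

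Groups came from the labels. Members, lists, alternatives and the tumours left out were chosen with earlier results of these data known. Named were all called carriers, 4 per direction by smallest p where no carrier was called, a few always-named carriers, and up to 3 called genes per direction of each partner list. Symbols of all 37 members were found in the RefSeq table (GRCr8) by gene ID, and promoters are those of RefSeq GRCr8. Slc25a29 and the other uncalled members are described to account for every member. Alternatives covered the filter, normalization, array weights, the replicate block, cell type covariates, tumours 4 and 5 of 18 months, and each array left out in turn.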

Additional observations from a re-analysis of the deposited data

Results flagged for a closer look

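In 13 of 111 groups of 6 values (11.7%), 1 tumour lay far from the other 5 by Dixon's test, where chance alone gives about 1 in 20. Of these, 8 were in homozygous tumours of 9 months, 3 in heterozygous tumours of 18 months and 2 in heterozygous tumours of 9 months. All groups come from the same 18 arrays and are not independent, and the share over all genes was not computed. Homozygous tumour 3 was the lowest for Slc25a21 (6.78, the others 7.22 to 7.46), Slc25a29 (6.74, the others 7.29 to 7.52) and Slc25a41 (6.14, the others 6.48 to 6.67), and the highest for Slc25a27 (8.55, the others 7.39 to 7.70). This tumour also had the lowest follicular mean of its group, at 10.1. It was the highest or the lowest of the 12 tumours of 9 months for 50.3% of all genes. Homozygous tumour 1 was the lowest for Slc25a20 (9.17, the others 9.56 to 9.73) and Slc25a28 (9.09, the others 9.54 to 9.78) and the highest for Slc25a47 (7.43, the others 7.11 to 7.21). Homozygous tumour 4 was the highest for Slc25a26 (9.41, the others 9.21 to 9.26).

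In heterozygous tumours of 18 months, tumour 4 was the lowest for Slc25a3 (11.8) and the highest for Slc25a22 (10.6, the others 9.72 to 9.95), and tumour 1, which had the lowest follicular mean of all arrays, was the lowest for Slc25a23 (11.7, the others 11.97 to 12.12). In heterozygous tumours of 9 months, tumour 6 was the highest for Slc25a4 (11.2, the others at most 10.997) and tumour 4 the lowest for Slc25a40 (8.06, the others 8.34 to 8.46). Each of these tumours stayed in the fits.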

How the results depend on the processing

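Against 15 of 36 carriers called in the age comparison, 12 to 18 were called with any array left out (all genes 4290 to 5740 of 11370, main 5009). With the parathyroid mean as a covariate 6 carriers were called (all genes 2613), and with the follicular mean 1 (all genes 201). In the genotype comparison the carriers stayed at 0 in every setting run, while the count of all genes, 0 in the fit reported, was 24 with only the compared groups, 118 with array weights, 7 with the follicular covariate, 7 without tumours 4 and 5 of 18 months and 0 to 2 with any array left out (2 without tumour 4 of 18 months, 1 without tumour 5 of that group and 1 without homozygous tumour 5). The cause was not tested.

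Signs turned for small differences. In the genotype comparison Slc25a3 was -0.0163 after quantile normalization and -0.0052 with the follicular covariate, Slc25a4 was -0.00948 with the parathyroid and -0.053 with the follicular covariate, and Slc25a46 was -0.01 with array weights, -0.00583 after quantile normalization and -0.0287 with the follicular covariate. With any array left out they ran from -0.0234 to 0.0372, from -0.0723 to 0.107 and from -0.0574 to 0.0768. In the age comparison the follicular covariate gave 0.1 for Slc25a21, -0.035 for Slc25a46 and -0.145 for Slc25a4. Slc25a3 was 0.0246 with array weights, 0.0179 after median centring, 0.0436 with the muscle covariate, 0.0416 without tumours 4 and 5 and -0.023 to 0.0336 with any array left out. The cause was not tested. Of the other settings of the named carriers, 387 in the genotype and 491 in the age comparison kept sign and call, 52 lost a call and 4 gained one.

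The fits reported did not pair tumours by replicate number. Deviations of same-numbered tumours correlated between -0.139 and 0.301 in the genotype comparison and between -0.127 and 0.327 in the age comparison. Of these, 1 and 4 of 6 were over 0.1. Best with their own number correlated 1 of 6 homozygous and 3 of 6 18-month tumours. These values neither show nor exclude a pairing by number. With the replicate block 0 and 15 carriers were called (all genes 0 and 4866), but Slc25a26 lost its age call (adjusted p = 0.0570) and Slc25a38 gained one (adjusted p = 0.0299). The number of arrays, and the mix of cells in each tumour, limit what these comparisons can show.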
